A study of Mus musculus with 8 samples.

Results

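KDM4D and MLL1 knockdown lines of C3H10T1/2 cells, a mouse mesenchymal stem cell line that can turn into fat cells, were compared with each other by RNA-seq at day 5 of adipogenic differentiation. One line carried a stable shRNA against KDM4D (shKDM4D) and the other a stable shRNA against MLL1 (shMLL1), and both had received insulin, dexamethasone and isobutylmethylxanthine from 2-day post-confluence (day 0), then insulin alone, and before day 5 were moved to medium with serum and none of these agents. A gene was taken where its RPKM passed 1 in shKDM4D or shMLL1 cells at day 5, which left 11001 of the 41325 genes listed. RPKM gives the reads of a gene relative to its exon length in kilobases and to the mapped reads of the library. The ratio between the lines is given as log2 of (RPKM + 0.1), with positive values where the shKDM4D line was higher. The series also holds shControl and shNFIB lines (NFIB is a transcription factor) and day 0 samples of all 4 lines, in 8 libraries in all. Each condition is 1 library of a line grown from puromycin-selected clones. Which clone was sequenced is not stated, a difference between 2 libraries has no replicate check, and clone and target cannot be told apart. The intervals given are exact 95% intervals of the read counts and cover counting error only.

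KDM4D removes methyl groups from lysine 9 of histone H3, a mark of silent chromatin. MLL1, encoded by *Kmt2a*, is a methyltransferase that places methyl groups on lysine 4 of histone H3 and works in a complex with shared core subunits. The study asked how these factors act together in adipogenesis, in which the early factors C/EBPβ and C/EBPδ come before PPARγ and C/EBPα, which then turn on the genes of the fat cell. A direct comparison shows where transcript levels differed between the 2 lines without reading both against the same control library.

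The day 5 libraries held 21616235 mapped reads for shKDM4D and 38125289 for shMLL1 cells, as recovered from the steps of the RPKM values, and the 8 libraries held between 15842221 and 38202580. *Kmt2a* (chromosome 9, from 44803355 to 44881296 of GRCm38) had an RPKM of 4.89 in shKDM4D and 1.63 in shMLL1 cells, a log2 ratio of 1.53, and at day 0 the ratio was 1.19. The target of the MLL1 shRNA was thus lower in its own line on both days. *Kdm4d* was covered by 4 reads in shKDM4D and 15 reads in shMLL1 cells, with a ratio without pseudocount of -1.09 (interval -3.14 to 0.56), and a difference was not detectable at this depth. It lay under the RPKM limit and is not among the 11001 genes. Both libraries had the levels of a mesenchymal line, with *Col1a1* at 842 and 569 and *Pdgfra* at 50.5 and 32.00. The macrophage genes *Ptprc* and *Tyrobp* were listed at 0 in both, and the highest marker of endothelial, epithelial, skeletal muscle or glial cells was *Tnnt1*, at 3.19 and 0.393. Of the mesenchymal markers, *Thy1* alone was under an RPKM of 1, in shKDM4D cells.

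Of the 11001 genes, 352 (3.20%) were more than 2-fold higher and 645 (5.86%) more than 2-fold lower in shKDM4D than in shMLL1 cells, which is 997 genes (9.06%) in either direction, and 10004 were neither. The lower genes differed by more, as 80 of them were past 16-fold against 10 of the higher ones. The counting interval lay wholly past 2-fold for 265 of the higher and 462 of the lower genes. The median ratio over all genes was -0.07. Dividing each library by its *Gapdh* level adds 0.40 to every log2 ratio before the pseudocount, so that 857 genes were higher and 397 lower, and values between -0.40 and 0 change sign under that scaling. With quantile normalization 459 genes were higher and 524 lower, and by the difference of the changes from day 0 the numbers were 216 and 944. The largest differences were shared by genes of the interferon response, which were lower in shKDM4D cells.

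**Figure D1:**
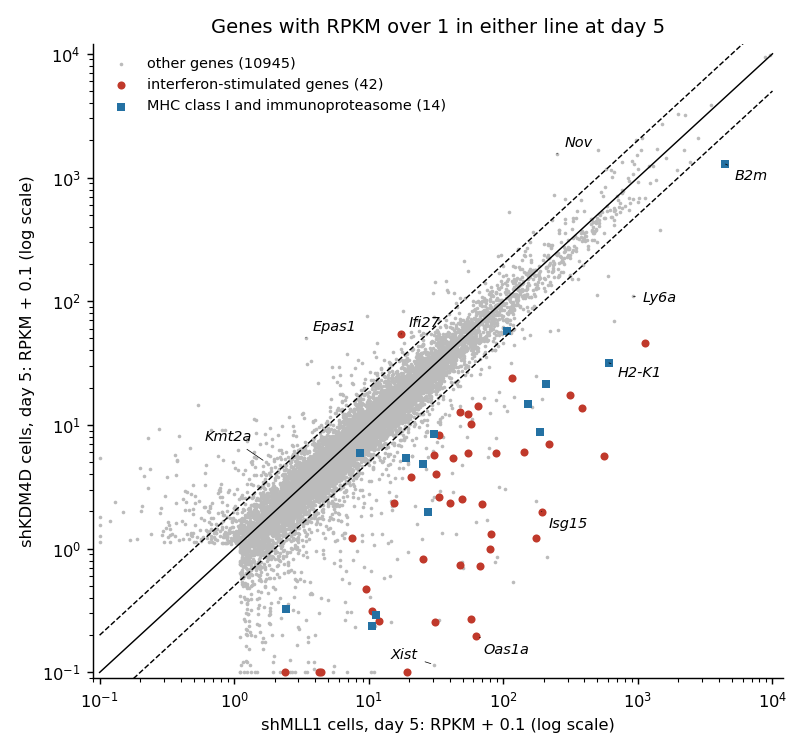
Level of each of the 11001 genes in shMLL1 cells (x axis) and shKDM4D cells (y axis) at day 5, as RPKM + 0.1 on log axes with 1 library a side. The solid line marks equal levels and the dashed lines a 2-fold difference. 41 of 42 interferon-stimulated genes and 12 of 14 genes of MHC class I and the immunoproteasome lie below the lower dashed line, while *Ifi27* lies above the upper one.

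Interferons are secreted proteins that cells release when they sense foreign or misplaced nucleic acid. They bind receptors whose JAK kinases activate transcription factors that join IRF9 on a DNA element called ISRE, and the genes switched on in this way block viral replication and raise antigen presentation. Mesenchymal cells carry the receptors and respond to type I interferon. Of the interferon-stimulated genes listed, 42 were over the RPKM limit, 41 of them were more than 2-fold lower in shKDM4D than in shMLL1 cells, and 1 was higher. Their median ratio was -4.57 (-4.60 with genes at 0 reads set to their bound), against -0.07 over all genes. At day 0 the median ratio of the same genes was 0.02. Some members, such as *Oas1a*, *Oas2*, *Zbp1* and *Usp18*, passed the RPKM limit in shMLL1 cells only, as did members of the interferon lists below. For such members the filter itself favours a lower level in shKDM4D cells, so the counts and medians are a description.

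The interferons themselves were at or near 0. Of the 10 ligand genes looked at, none was over an RPKM of 1, and *Ifnb1*, the interferon that most cells make first, had an RPKM of 0 in shKDM4D and 0.105 in shMLL1 cells. That level is 3 reads in shMLL1 cells. The receptor chains were present in both lines, with *Ifnar2* at 46.9 and 28.8 in shKDM4D and shMLL1 cells and a log2 ratio of 0.64 for *Ifnar1*. None of the 9 receptors, JAK kinases and SOCS inhibitors was past 2-fold in either direction.

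These 2 lists, like those of the sensors, interferon regulatory factors, GTPases and p200 proteins, were made after the values of this comparison were seen. Several members of the later lists were also counted among the interferon-stimulated genes above, so the counts overlap. *Zbp1*, *Ifih1*, *Dhx58*, *Irf7*, *Irf9* and *Iigp1* are examples. Among the sensors of nucleic acid and their adaptors, 11 of 18 were lower in shKDM4D cells and none was higher. *Zbp1*, a sensor of Z-form nucleic acid, had an RPKM of 0.170 against 57.3. The RNA helicase *Ifih1* (MDA5) had 0.215 against 10.5 and *Dhx58* (LGP2) 2.52 against 33.3. The helicase *Ddx58* (RIG-I) was nearer between the lines, at 12.7 and 47.3. *Tlr3*, the endosomal receptor for double-stranded RNA, had 1.23 against 6.57, and *Adar*, which edits double-stranded RNA, 4.39 against 16.6. By contrast, the signalling proteins *Mavs* (9.16 and 7.34), *Tbk1* (13.9 and 16.7) and *Irf3* (5.19 and 4.91) were within 2-fold.

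Of 5 interferon regulatory factors over the limit, 2 were more than 2-fold lower in shKDM4D cells (*Irf7* and *Irf9*) and none was higher. *Irf7*, the master regulator of interferon-α genes, had an RPKM of 1.21 in shKDM4D and 80.6 in shMLL1 cells, a log2 ratio of -5.94 (without pseudocount -6.05, interval -6.36 to -5.77). In the other libraries at day 5 it was 1.89 (shControl) and 13.3 (shNFIB), and at day 0 it was 0.474 in shKDM4D and 0.471 in shMLL1 cells. Of the 4 lines, shMLL1 and shNFIB had the highest *Irf7* levels at day 5. *Stat2* and *Irf9*, which act together on the ISRE, differed less than *Irf7*. *Stat2* had 5.27 against 41.8 and *Irf9* 8.16 against 33.03. *Irf1* and *Irf2*, which also bind such elements, had ratios of -0.82 and -0.08 and did not pass 2-fold.

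The widest gap among the interferon-stimulated genes was in an effector gene. *Oas1a* (chromosome 5, from 120896256 to 120907521), an enzyme that makes 2-5A to activate RNase L, had an RPKM of 0.0982 in shKDM4D and 62.8 in shMLL1 cells, with 4 and 4515 reads. Its log2 ratio was -8.31, the largest among genes with an RPKM of at least 10 in the higher library at a pseudocount of 0.1. The order depended on that value, as *Xist* (-10.95 against -9.32) was further from 0 than *Oas1a* without a pseudocount, and *Slfn2* with a pseudocount of 1. *Oas1g*, a close paralog, had 0 reads in shKDM4D and an RPKM of 19.1 in shMLL1 cells, at least 322-fold lower when 3 reads are taken as the floor of the library. Reads shared between the *Oas1* copies could have been split in the authors' counting, so their single values are uncertain, but *Oas2* (0.156 against 31.1) was also lower. The ubiquitin-like *Isg15* had 1.90 against 192 and its protease *Usp18* 0.630 against 66.7. *Ifit3* was the most abundant interferon-stimulated gene of shMLL1 cells, at 1133 against 45.7 in shKDM4D cells, and *Ifit1*, which binds foreign RNA, was at 386 against 13.5. *Bst2* (tetherin), which holds budding viruses at the membrane, had 6.97 against 219.5. The 1 gene of the list that went the other way was *Ifi27*, at 54.2 in shKDM4D and 17.3 in shMLL1 cells, while its neighbour in name *Ifi27l2a* was at 5.50 and 558.

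Families of interferon-inducible proteins were on the same side, and the GTPases share members such as *Iigp1* with the first list. All 18 GTPases looked at (guanylate-binding proteins and immunity-related GTPases, which attack the vacuoles of intracellular microbes) were lower in shKDM4D cells, with a median ratio of -3.89. *Iigp1* had an RPKM of 1.13 against 175, and *Tgtp1* and *Tgtp2*, which are near-identical copies and therefore uncertain one by one, had 0.678 against 86.6 and 0.756 against 89.01. All 12 members of the p200 family, which includes DNA-binding proteins such as AIM2, were lower as well, with a median of -3.15. *Ifi206* was at 0.167 against 33.2 and *Ifi202b* at 24.97 against 176. *Tgtp1*, *Tgtp2* and *Ifi206* are among the members that passed the RPKM limit in shMLL1 cells only, which favours this direction. Outside these lists, *Slfn2*, a Schlafen family protein that protects tRNA, had 0.751 against 211 and a log2 ratio of -7.95. *Plac8*, a small cysteine-rich protein, had 0.436 against 118. *Ms4a4d*, a membrane protein with 4 spans, had 0 reads in shKDM4D and an RPKM of 10.8 in shMLL1 cells, at least 117-fold lower, and was at 13.7 in shNFIB cells.

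Transcripts of the MHC class I antigen presentation genes were mostly lower in shKDM4D than in shMLL1 cells, and presentation itself was not measured. Of the 14 genes, 12 were more than 2-fold lower and none was higher, with a median ratio of -3.09. The heavy chain *H2-K1* had an RPKM of 31.6 in shKDM4D and 609 in shMLL1 cells, and *H2-Q4* had 8.66 and 187. Heavy chain genes are alike in sequence, and single values could be affected by shared reads. The light chain *B2m*, a single-copy gene, had 1283 against 4475, a log2 ratio of -1.80. The immunoproteasome subunits *Psmb8* (0.135 against 10.5) and *Psmb9* (0.190 against 11.2) and the peptide transporter *Tap1* (1.87 against 27.2) had the largest ratios among the processing genes. Of these, *Psmb8* and *Psmb9* passed the RPKM limit in shMLL1 cells only. The loading factors *Tapbp* and *Erap1* were the 2 that did not pass 2-fold, with ratios of -0.91 and -0.52.

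Set against the other libraries, the shKDM4D line was the one close to the control. The summed RPKM of the 44 interferon-stimulated genes listed at day 5 was 282 in the shKDM4D and 360.1 in the shControl library, while shNFIB had 1999 and shMLL1 4508. At day 0 the 4 sums lay between 103 (shMLL1) and 198 (shControl). The gap at day 5 thus went with a higher level in shMLL1 and, to a lesser degree, in shNFIB cells than at day 0. The median gene of the list went from an RPKM of 0.679 to 48.7 in shMLL1 and from 0.626 to 2.34 in shKDM4D cells. For the MHC class I genes the sums at day 5 were 1443 in shKDM4D, 1507 in shControl, 3229 in shNFIB and 5871 in shMLL1 cells, in the same order.

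**Figure D2:**
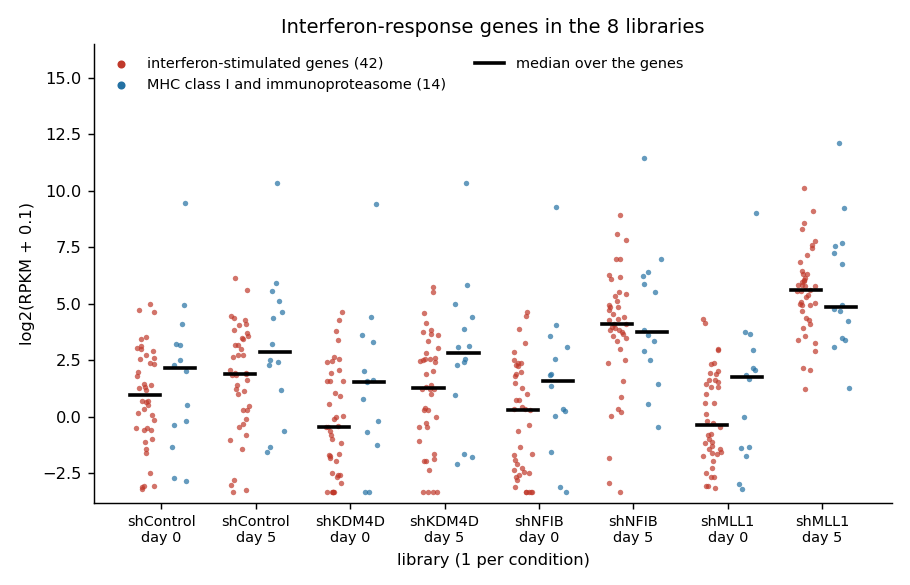
Levels of 42 interferon-stimulated genes (red) and 14 genes of MHC class I and the immunoproteasome (blue) in the 8 libraries, as log2 of (RPKM + 0.1), with 1 point per gene and a black bar at the median over the genes. At day 0 the medians of the 4 lines are low, with shControl the highest, and at day 5 the shMLL1 library is highest, shNFIB second, and shKDM4D and shControl lowest.

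The promoters of these genes were examined for the core of the ISRE, GAAANNGAAA on either strand, in the 250 bases before and 50 after the start of each gene. Promoter sequences (RefSeq, GRCm38.p6) were matched by symbol to 8542 of the 11001 genes. The motif was found in 78 of 423 promoters (18.4%) of the genes lower in shKDM4D cells, in 5 of 245 (2.04%) of the higher genes and in 246 of 7874 (3.12%) of those within 2-fold. It is present in 3.44% of all 32851 promoters of the same length. The share was larger where the difference was larger, from 10.9% of the genes lower by 2 to 4 fold to 21.3% by 4 to 16 fold and 53.3% (24 of 45) by over 16 fold. Among the lower genes outside the interferon lists it was 44 of 364 (12.1%). A STAT dimer motif that also marks interferon-γ targets, TTCNNNGAA, was present in 11.6% of the lower, 8.16% of the higher and 8.30% of all promoters. By size it was in 11.3% of the genes lower by 2 to 4 fold, 10.7% by 4 to 16 fold and 15.6% (7 of 45) by over 16 fold. A match is a description of the letters in the window and was not tested for binding.

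The upstream parts of 5 such promoters are shown because they belong to genes described above that span the range of levels, from *Oas1a* to *B2m*. Each runs 5′ to 3′ on the strand of the gene and ends before the start site, with coordinates of GRCm38.p6, and the capitals mark the matches to the ISRE core, which can overlap.
Oas1a, chr5:120907526-120907575, strand -: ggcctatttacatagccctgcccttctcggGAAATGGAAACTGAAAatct
Isg15, chr4:156200845-156200926, strand -: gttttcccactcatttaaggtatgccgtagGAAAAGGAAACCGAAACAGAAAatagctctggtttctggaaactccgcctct
Ifit1, chr19:34640755-34640843, strand +: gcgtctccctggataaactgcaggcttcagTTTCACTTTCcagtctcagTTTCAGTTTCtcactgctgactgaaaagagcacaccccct
Bst2, chr8:71537557-71537632, strand -: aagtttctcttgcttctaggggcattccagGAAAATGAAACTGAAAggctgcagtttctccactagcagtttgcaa
B2m, chr2:122147518-122147587, strand +: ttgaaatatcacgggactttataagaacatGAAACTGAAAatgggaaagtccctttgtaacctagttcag
*Isg15* holds 3 overlapping matches and *Oas1a* and *Bst2* 2 each, in the gene's orientation. The 2 matches of *Ifit1* lie apart and on the opposite strand, and *B2m*, the gene with the smallest ratio of the 5, holds 1.

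**Figure D3:**
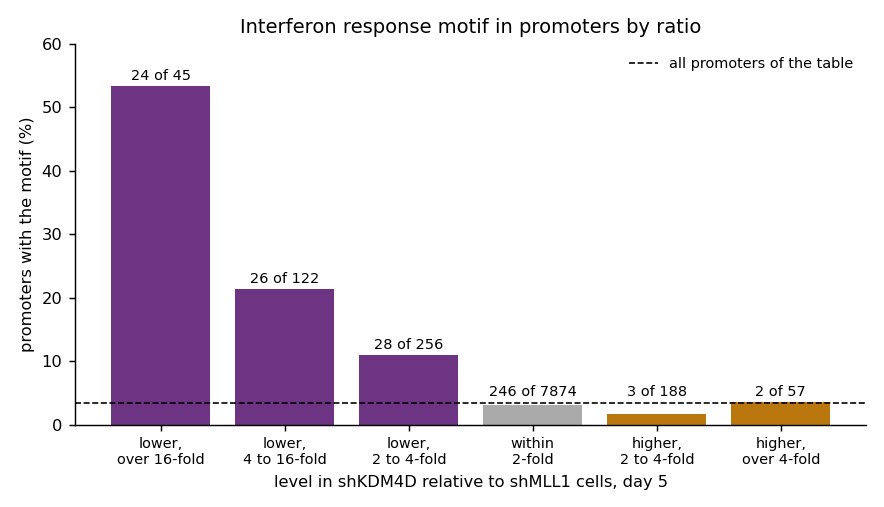
Share of promoters (y axis, in percent) that hold the ISRE core, by the ratio of the gene between shKDM4D and shMLL1 cells at day 5 (x axis), with the number of promoters over each bar. The dashed line marks the share of all promoters, 3.44%. The share is 53.3% for the genes lower by over 16 fold and 3.12% for those within 2-fold.

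Inflammatory genes were divided between the lines. Of 16 chemokines and cytokines over the limit, 7 were lower and 2 higher in shKDM4D cells. Over all genes 5.86% were lower and 3.20% higher. *Ccl5* (0.675 against 49.04) and *Cxcl10* (0.205 against 6.76), which draw T cells and are known interferon targets, were the largest of the lower ones. The 2 that were higher are abundant stromal chemokines, *Cxcl12* at 523 against 111 and the neutrophil attractant *Cxcl5* at 142 against 30.7. *Ccl2* and *Ccl7*, which recruit monocytes, were within 2-fold at ratios of -0.49 and -0.57. Of 16 acute-phase and complement genes, 5 were lower and 2 higher, with a median ratio of -0.37. At day 0 the list went the other way, with 10 genes higher, none lower and a median of 1.19. Of the 11001 genes, 4.80% were higher and 1.71% lower at that time. Complement factor B (*Cfb*) was at 1.10 against 24.6 and the protease inhibitor *Serpina3n* at 2.85 against 33.8, while *C3*, the most abundant of the list, was equal at 753 and 764. Haptoglobin (*Hp*) at 29.2 against 5.96 and the C1 inhibitor *Serping1* at 11.3 against 3.18 were higher in shKDM4D cells. The macrophage marker *Cd14* was at 4.03 and 8.24. It made up most of the summed level of all 7 macrophage markers, 5.04 in shKDM4D and 8.45 in shMLL1 cells. *Lyz2* went the other way, at 0.809 against 0.0399 (23 and 2 reads). *Csf1r* (0.0758 against 0.0537) and *Aif1* (0.121 against 0.103) were slightly higher in shKDM4D cells, at few reads.

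The 12 genes that were highest in shKDM4D relative to shMLL1 cells, among those with an RPKM of at least 10, were of mixed function. *Epas1* (chromosome 17, from 86753700 to 86833410), which encodes the hypoxia-inducible factor HIF-2α, had an RPKM of 50.6 against 3.31, a log2 ratio of 3.89. It was at 26.1 in shControl and 3.51 in shNFIB cells, so shKDM4D cells were above the control and shMLL1 cells below it. *Gpm6b*, a membrane glycoprotein, was at 30.9 against 3.39, and *Iqgap2*, a scaffold of the cytoskeleton, at 32.9 against 3.64. *Six2*, a homeobox factor of mesenchymal progenitors, was at 11.2 against 1.30. *Nov* (CCN3), a secreted matricellular protein, was the most abundant of the group at 1556 against 249.99. *Papss2*, which makes the sulphate donor for proteoglycans, was at 10.8 against 1.34, and *Pcolce2*, an enhancer of procollagen cleavage, at 29.4 against 5.22. *Fxyd1*, a regulator of the sodium pump, was at 37.6 against 6.84 and *Aoc3*, an amine oxidase found on fat and smooth muscle cells, at 21.6 against 4.06. The secreted 1500015O10Rik was at 75.6 against 9.54, and *Hp* is given above. *Rn7s1*, with the largest log2 ratio of the group (4.76), is a copy of the 7SL RNA gene with 14.5 against 0.437, while its near-identical copy *Rn7s2* had 14.3 against 40.7, so its ratio is uncertain.

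Fat cell genes were low in both lines, and those that differed were mostly higher in shKDM4D cells. *Pparg* was at 8.21 in shKDM4D and 7.22 in shMLL1 cells, a log2 ratio of 0.18 (interval without pseudocount 0.02 to 0.35), and at 21.7 in shControl cells. *Cebpa* passed 2-fold, at 5.42 against 2.42 (ratio 1.13), with 14.01 in shControl cells. *Cebpb*, which acts before both, was at 65.9 and 48.7 and did not pass. The interval of *Cebpa* without pseudocount (0.92 to 1.41) included 2-fold, and its ratio was 0.91 with a pseudocount of 1. At day 0 the ratios were already 1.28 for *Cebpa* and 0.73 for *Pparg*, so that the differences of the changes from day 0 were -0.15 and -0.54. Both lines lay below the control in both genes at day 5. Of 18 pro-adipogenic factors, 2 were higher (*Cebpa* and *Ebf3*) and 2 lower (*Klf15*, at 0.448 against 2.84, and *Ppargc1a*, at 1.32 against 4.01). Over all genes 3.20% were higher and 5.86% lower.

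Downstream of these factors, the hormone *Adipoq* was at 9.01 in shKDM4D against 0.570 in shMLL1 cells and the fatty acid carrier *Fabp4* at 9.34 against 1.75. In shControl cells they were at 258 and 277, so these are differences between levels that were small in both knockdown lines. The lipid droplet proteins *Cidec* (3.76 against 0.113) and *Plin1* (1.86 against 0.181) went the same way. Of 12 lipid droplet genes 3 were higher, of 7 lipases and cofactors 1 was higher (*Mgll*, at 6.17 against 0.976) and 1 lower, and of 15 genes of fatty acid and triglyceride synthesis 2 were higher (*Elovl6* and *Gpd1*). None of the lipid droplet and synthesis genes was lower, which in lists this short is near the share of all genes (5.86% lower, 3.20% higher). *Adipoq*, *Cidec* and *Plin1* passed the RPKM limit in shKDM4D cells only. *Fabp5*, the carrier that fat cell precursors express, went the other way at 3.63 against 15.5. No gene of fatty acid oxidation passed 2-fold among 20. Of 22 genes of cholesterol synthesis and transport, 3 were lower, among them *Mvd* and *Fdps*, and the exporter *Abcg1* was higher. The median ratio of that list was -0.36, against -0.07 over all genes. Relative to *Gapdh* it was 0.03, against 0.32 over the 11001 genes. Of 10 genes of fatty acid uptake 2 were higher (*Fabp4* and *Acsl1*) and 1 lower (*Fabp5*), and of 7 adipokines and receptors 1 was higher (*Adipoq*) and 1 lower (*Apln*). The brown fat genes *Ucp1* and *Cidea* were listed at 0 in both lines at day 5. Of that list *Tbx1* was higher (5.05 against 0.276) and *Ppargc1a* lower.

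Of 17 factors counted that hold back adipogenesis, 4 were more than 2-fold higher in shKDM4D cells and none was lower. The shares of all genes were 3.20% and 5.86%, and the median ratio of the list was 0.27. The entry *Ddit3_1*, named for the CHOP gene of this list, did not match by symbol and was not counted. It was lower, at 58.3 against 253, a log2 ratio of -2.12. *Dlk1* (Pref-1), a membrane protein of preadipocytes, had an RPKM of 5.33 in shKDM4D cells and 0 reads in shMLL1 cells, at least 383-fold higher against a floor of 3 reads. It was at 5.09 in shControl and 0.0112 in shNFIB cells. *Snai2*, a zinc finger repressor, was at 147 against 37.2, *Foxc2* at 5.98 against 1.31 and *Runx2*, the factor of bone cells, at 8.15 against 2.64. The nuclear factor *Nfib* was at 22.98 in shKDM4D against 10.3 in shMLL1 cells, with 17.02 in shControl cells, and the other 3 members of its family did not pass 2-fold.

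**Figure D4:**
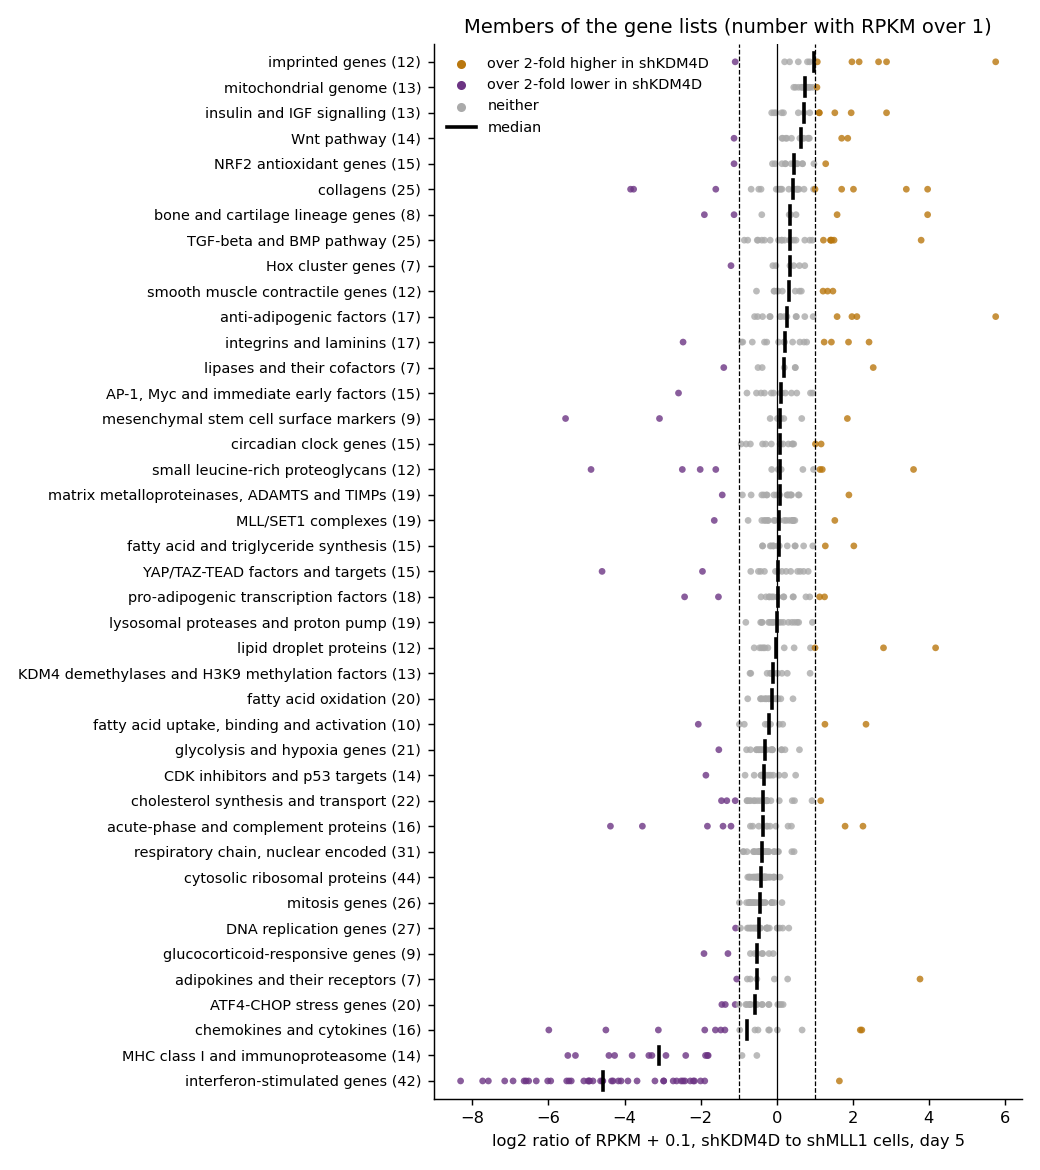
Log2 ratio of RPKM + 0.1 between shKDM4D and shMLL1 cells at day 5 (x axis) for the members of each gene list with at least 5 genes over the RPKM limit (y axis, number of such genes in brackets). Each point is a gene, coloured where it is past 2-fold, and the black bar is the median of the list. The interferon-stimulated and MHC class I lists have medians of -4.57 and -3.09, and the medians of the other lists drawn lie between -0.77 and 0.97. The 7 lists made after the values were seen are not drawn.

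Signalling genes that passed 2-fold were mainly higher in shKDM4D cells. In the TGF-β and BMP pathway, which steers mesenchymal fate, 6 of 25 genes were higher and none was lower, against 3.20% and 5.86% of all genes, and 6 were higher at day 0. Among them were the ligand *Tgfb2* (13.8 against 5.09), the receptor *Bmpr2* (8.75 against 3.67), the ligand-binding matrix protein *Ltbp2* and the transducers *Smad6* and *Smad9*. In insulin and IGF signalling, 5 of 13 were higher and none was lower, with the growth factors *Igf2* at 2.03 against 0.188 and *Igf1* at 12.5 against 3.14 and the binding protein *Igfbp3* at 17.6 against 6.02. The docking protein *Irs1*, through which the insulin receptor signals, was at 31.3 against 14.3. In the Wnt pathway the agonist *Rspo3* (124 against 37.7) and *Sfrp2* (28.9 against 7.85), a secreted modulator, were higher and *Tcf7* lower, among 14 genes. By the difference of the changes from day 0, *Tgfb2* (-0.11), *Ltbp2* (-0.43), *Rspo3* (-2.42) and *Sfrp2* (-0.29) had the opposite sign. Of 12 imprinted genes, which are expressed from 1 parental allele, 6 were higher, among them *Peg10* (5.14 against 0.720), *Ndn* (6.95 against 1.46) and *H19* (8.26 against 2.02), and *Airn* was lower.

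The matrix genes that passed 2-fold went in both directions, and their counts can be read against 3.20% higher and 5.86% lower over all genes. Of 25 collagen genes, 5 were higher and 3 lower in shKDM4D cells. *Col23a1*, a transmembrane collagen, was at 33.6 against 8.21 and *Col8a2* at 9.03 against 0.760, while its partner chain *Col8a1* was at 0.124 against 2.93. *Col28a1* was at 1.49 against 22.7, and the basement membrane chain *Col4a5* at 8.88 against 27.2. Among 12 small leucine-rich proteoglycans, which organise collagen fibrils, 3 were higher and 4 lower. Decorin (*Dcn*) was at 3.03 in shKDM4D and 92.2 in shMLL1 cells and at 31.8 in shControl cells, and lumican (*Lum*) was at 1.25 and 5.31. *Kera* (0.122 against 1.14) and *Epyc* (0.470 against 1.63) were the other lower ones, and passed the RPKM limit in shMLL1 cells only. All 4 are neighbours on chromosome 10, from 97479609 (*Dcn*) to 97682454 (*Epyc*). At day 0 *Dcn* was at 0.693 and 3.13, and *Lum*, *Kera* and *Epyc* were listed at 0 in both lines. *Fmod* (3.72 against 0.214) and *Omd* (31.5 against 14.2) were higher. Of 17 integrins and laminins, 4 were higher (with *Itga1*, a collagen receptor, at 5.29 against 1.36) and 1, *Itgb8*, was lower. Of 19 matrix metalloproteinases, ADAMTS proteases and TIMPs, *Mmp3* was higher (5.01 against 1.27) and *Adamts14* lower, which is near the shares of all genes.

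Among contractile and lineage genes, the shares past 2-fold can be read against 9.06% of all genes in either direction. Of 12 smooth muscle genes, 3 were higher in shKDM4D cells, including the actin *Acta2* at 673 against 289. Of 15 YAP and TAZ genes, the targets *Ankrd1* (0.210 against 7.34) and *Ctgf* (4.95 against 19.4) were lower. Of 8 bone and cartilage genes, *Spp1* (osteopontin) was lower at 159 against 596 and *Phex* was lower too, while *Runx2* and *Col2a1* were higher. Among the stem cell surface markers, *Ly6a* (Sca-1) was at 109 against 927 and *Thy1* (CD90) at 0.139 against 11.1, both lower, and *Alcam* (CD166) was higher at 9.80 against 2.62. *Ly6a* is also known as an interferon target. Of 9 glucocorticoid-responsive genes 2 were lower, *Fkbp5* (5.48 against 20.9) and *Tsc22d3* (10.96 against 26.8), both of which dexamethasone is known to induce. Of 8 retinoid genes 3 were lower, namely the retinaldehyde dehydrogenases *Aldh1a1* (2.49 against 30.6) and *Aldh1a7* (2.93 against 103) and the reductase *Dhrs3* (7.60 against 18.2), in a list made after the values were seen.

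The chromatin factors themselves were close. In the MLL and SET1 complexes, 1 of 19 genes was higher (*Kmt2a*, the target) and 1 lower (*Pagr1a*, a complex subunit, at 0.485 against 1.72). The core subunits *Wdr5* (9.12 and 9.37), *Rbbp5* (15.8 and 16.6) and *Ash2l* (6.98 and 9.20) were within 2-fold. None of 13 KDM4 demethylases and H3K9 methylation factors passed, and the related demethylases *Kdm4a*, *Kdm4b* and *Kdm4c* had ratios of 0.02, 0.14 and -0.16. Of 7 *Hox* genes over the limit, which are classical targets of MLL1, none was higher and *Hoxa10* was lower in shKDM4D cells, at 1.05 against 2.54.

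Housekeeping groups held few genes past 2-fold but had medians away from that of all genes. The 44 cytosolic ribosomal proteins had a median ratio of -0.41 with no gene past 2-fold, and 31 nuclear genes of the respiratory chain had -0.39, also with none. The 13 genes of the mitochondrial genome had a median of 0.74 in the other direction, with *mt-Cytb* past 2-fold at 2002 against 960.4. Their summed RPKM was 13119 in shMLL1 cells at day 5 and between 16960.0 and 23612 in the other 7 libraries, so the shMLL1 day 5 library stood apart. The 26 mitosis genes had a median of -0.44 and 27 DNA replication genes -0.47, with 1 call between them (*Cdt1*). Relative to *Gapdh* the medians were -0.01 for the ribosomal, 0.01 for the respiratory, -0.05 for the mitosis and -0.07 for the replication genes. Over the 11001 genes the median under that scaling was 0.32, so these lists stayed below it. Of 20 ATF4 and CHOP stress genes counted, 3 were lower (*Trib3*, *Vldlr* and *Phgdh*), with a median of -0.57 at day 5 against 0.97 at day 0. The CHOP entry *Ddit3_1* was not counted in this list either, and its log2 ratio was -2.12. Among 21 glycolysis and hypoxia genes *Ankrd37* was lower, among 14 CDK inhibitors and p53 targets *Eda2r*, and among 15 immediate early factors *Atf3*. Of 15 clock genes 2 were higher (*Per3* and *Rora*), 1 of 15 NRF2 genes was higher (*Gstm1*) and 1 lower (*Gsta1*), and none of 19 lysosomal genes passed, nor did the 1 proliferin gene over the limit.

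The day 0 libraries show which differences between the lines were already present before induction. With 1 library per line and day, a difference seen at day 5 only cannot be told apart from variation between libraries. At day 0, 454 of 10312 genes (4.40%) were higher and 184 (1.78%) lower in shKDM4D cells, over the genes with an RPKM past 1 on that day. Of the 352 genes higher at day 5, 136 (38.6%) were already past 2-fold in the same direction at day 0, while 4.80% of the 11001 genes were higher at that time. Of the 645 lower genes, 104 (16.1%) were already lower, against 1.71% of the 11001, and 493 were within 2-fold. From day 0 to day 5, 415 of the 645 were more than 2-fold higher in shMLL1 cells and 185 in shKDM4D cells, against 2097 and 1250 of all 11001 genes. The shMLL1 level at day 5 also chose the 645 genes, so these numbers are a description. In shControl cells at day 5 the level was nearer to shKDM4D for 434 of the 645 lower and for 240 of the 352 higher genes. In shNFIB cells it was nearer to shKDM4D for 328 and 165 of them. The shares over all 11001 genes were not computed, so these counts are a description only.

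**Figure D5:**
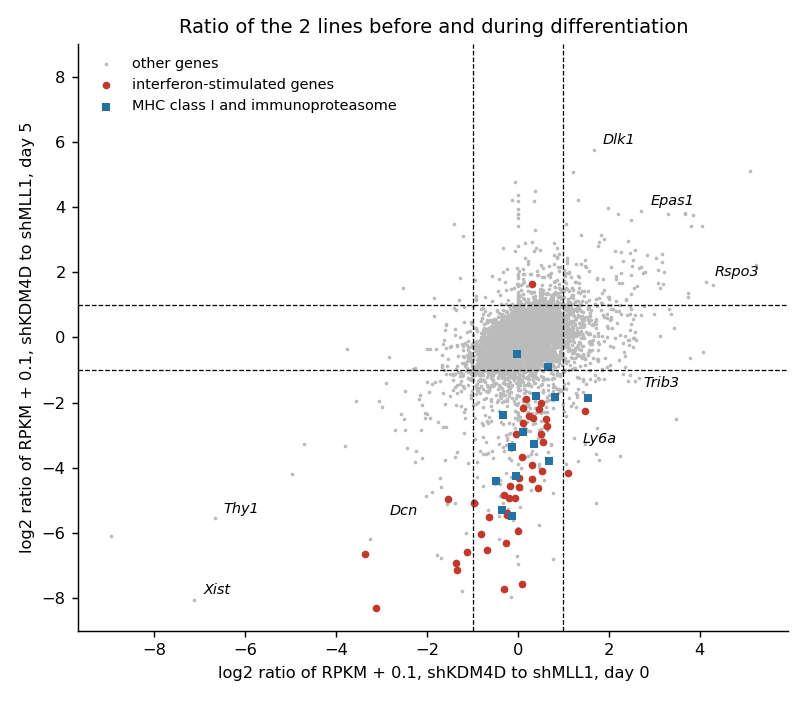
Log2 ratio of RPKM + 0.1 between shKDM4D and shMLL1 cells at day 0 (x axis) and day 5 (y axis) for the 11001 genes, with dashed lines at 2-fold. Interferon-stimulated genes (red) and MHC class I genes (blue) lie mostly near 0 at day 0 and far below 0 at day 5, while *Xist* and *Thy1* are low on both axes.

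A few genes were present in 1 line and nearly absent in the other on both days (at least an RPKM of 5 against less than 0.5). *Xist* (chromosome X, from 103460366 to 103483254), the RNA that coats the inactive X chromosome, had an RPKM of 0.0456 and 0.0155 in shKDM4D cells at days 0 and 5 and 20.2 and 30.6 in shMLL1 cells. It was between 13.03 and 29.2 in the 4 shControl and shNFIB libraries, so the shKDM4D libraries stood apart from the other 6. The median ratio of 353 genes on the X chromosome was -0.04 at day 5, against -0.07 over all genes. *Thy1* was at 0.0171 and 0.139 in shKDM4D and at 11.8 and 11.1 in shMLL1 cells, and was as low in shNFIB cells (0.0179 and 0.0632). The antisense RNA *Gm13528* had 0 reads in shKDM4D and an RPKM of 49.8 and 6.78 in shMLL1 cells. In the other direction, the non-coding *AI662270* was at 7.21 and 7.76 in shKDM4D and at 0.112 and 0.130 in shMLL1 cells.

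Genes at the limits show how fine the line between called and not called is. *Trpv4* (1.35 against 0.624) and AC122487.1 were just past 2-fold on the higher side, and *Aff3* (15.7 against 7.82) and *Gm48795* just under it. On the lower side *Traip* (0.781 against 1.66) and *Ccdc181* were just past and *Ormdl1* (1.53 against 3.16) and *Mtfr2* just under. *Zfp846* and *Cdkal1* were just over the RPKM limit of 1, and *Stk36* and *Sdhaf3* just under it. Low genes were called more often, with 11.6% of the 1234 genes between an RPKM of 1 and 2 lower in shKDM4D cells and 4.09% of the 4452 genes between 5 and 20. Above an RPKM of 100 the share was 8.15% of 491 genes.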

How the data were processed

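RNA of C3H10T1/2 lines was sequenced by the authors with a SMARTer kit, and reads were mapped to GRCm38 (mm10, per the submitters' processing notes) with CLC Genomics Workbench. The deposited files hold 1 RPKM value per gene symbol and library, normalized by the authors for exon length and mapped reads. No replicates exist, so p-values and an FDR were not computed. Values were joined on the symbol, and log2 ratios were taken of RPKM + 0.1 for the genes past an RPKM of 1 in shKDM4D or shMLL1 cells at day 5. A gene was called past 2-fold. Exon lengths came from GENCODE M21, in which 40851 of 41325 symbols were found and 36 more through RefSeq synonyms. The RPKM were whole reads to within 0.02 for 96.2% to 96.5% of values, which gave the depths and exact 95% intervals of the ratio (conditional binomial). For genes at 0 the floor was 3 reads, which over 1 kb of exons equals an RPKM of 0.139 in shKDM4D and 0.0787 in shMLL1 cells at day 5. Intervals and floors cover counting error only.

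Groups came from the labels. The named genes were *Kdm4d*, *Kmt2a*, *Pparg*, *Cebpa* and *Cebpb*, the 12 largest ratios in each direction with an RPKM of at least 10 in the higher library, and up to 5 called genes per direction of each of 44 gene lists with an RPKM of at least 5. Other members were named as examples. The genes to compare, the lists and the tests were chosen with earlier results of these data known, and 7 more lists were made after the values of this comparison were seen. List members under the RPKM limit were not counted, and some genes within the rule are not reported here. Promoters were searched for motifs on both strands. Alternatives were the pseudocount, the filter on RPKM, 3 other scalings, gene class, the counting interval and the change from day 0. Calls and intervals were checked on simulated reads. Python 3.11.15 was used with numpy 2.4.6, pandas 2.3.3, scipy 1.17.1 and matplotlib 3.10.9.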

Additional observations from a re-analysis of the deposited data

Results flagged for a closer look

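For 26 genes with an RPKM of at least 10 at day 5, the shKDM4D and shMLL1 lines were past 2-fold in opposite directions at day 0 and day 5. They drew attention because the 2 time points gave opposite effects of the same contrast, which was not tested, since each is 1 library a side. Of these, 25 were higher in shKDM4D cells at day 0 and lower at day 5. *Ly6a* went from 191 against 81.5 at day 0 to 109 against 927 at day 5. The stress gene *Trib3* went from 24.2 against 4.003 to 6.71 against 17.3. *Ddit3_1*, an entry named for the CHOP gene and without an exon length here, went from 62.1 against 27.7 to 58.3 against 253. The 1 gene with the reverse order was *Apoe*, an apolipoprotein, with 0.263 against 0.784 at day 0 and 31.6 against 8.88 at day 5.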

How the results depend on the processing

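The number of genes higher and lower in shKDM4D cells (352 and 645) varied with the treatment of low values. Adding 1 to each RPKM gave 224 and 416, a limit of RPKM over 5 gave 190 and 342, and no filter gave 720 and 1340. Scaling changed the balance. It was 575 lower against 414 higher with median-of-ratios scaling, 524 against 459 with quantile normalization (the median ratio over all genes became 0.04) and 397 against 857 relative to *Gapdh* (median 0.33). By the difference of the changes from day 0, 216 genes were higher and 944 lower. Without the interferon lists, an alternative chosen after seeing the data, 351 were higher and 563 lower. Protein coding genes only, symbols without Gm and Rik, no pseudocount and the counting interval kept both counts within 1.5 times. Under the 3 other scalings the 2 interferon lists kept their direction, with medians from -4.52 to -4.21 and from -3.03 to -2.73. Among the 118 named genes, 21 that were past 2-fold at day 5 had the opposite sign by the difference of the changes from day 0. These were *Fxyd1* (-0.60), *Cebpa* (-0.15), *G0s2* (-0.11), *Mgll* (-0.30), *Col8a2* (-0.64), *Col23a1* (-1.20), *Col12a1* (-0.70), *Ecm2* (-0.58), *Omd* (-0.42), *Mmp3* (-0.59), *Serping1* (-0.35), *Lmod1* (-1.13), *Sfrp2* (-0.29), *Rspo3* (-2.42), *Ltbp2* (-0.43), *Tgfb2* (-0.11) and *H19* (-0.77) on the higher side, *Fabp5* (0.04), *Apln* (0.23), *Spp1* (0.28) and *Thy1* (1.12) on the lower side, and the median of the 2 brown fat genes (-0.02). *Pparg* (-0.54) and *Cebpb* (-0.50), which were within 2-fold at day 5, also changed sign. All of these genes differed by as much or more at day 0. No paired analysis was possible because each condition is 1 library without a replicate number, and no library could be left out for the same reason. The depth limits statements on genes under about 3 reads.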

Other observations

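Chromosomes differed in their median ratio between shKDM4D and shMLL1 cells. At day 5 the median was 0.24 over 349 genes of chromosome 16, 0.19 over 381 genes of chromosome 14 and 0.11 over 619 genes of chromosome 1. It was -0.43 over 290 genes of chromosome 18, -0.26 over 533 genes of chromosome 10 and -0.24 over 904 genes of chromosome 11, against -0.07 over all genes. At day 0 the medians were 0.36, 0.32 and 0.33 for chromosomes 16, 14 and 1 and -0.34, -0.31 and -0.04 for chromosomes 18, 10 and 11. These are over the genes with an RPKM past 1 at day 0. The day 0 median over the 11001 genes of day 5 was 0.07. Of the 290 genes of chromosome 18, 34 were more than 2-fold lower and 1 was higher at day 5, against 5.86% and 3.20% of all genes. The cause was not tested.

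Common reference genes did not share 1 direction. *Gapdh* was at 236 in shKDM4D and 311 in shMLL1 cells at day 5, *Actb* at 533 and 395, *Hprt* at 51.6 and 66.9, *Ppia* at 223 and 218 and *Tbp* at 2.69 and 2.77.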
